A study of Mus musculus with 6 samples.

Results

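The embryonic and adult globins are the chains of haemoglobin, the oxygen carrier of red cells. The 7 main globin genes of the mouse alpha and beta clusters were taken by symbol: Hbb-y, Hbb-bh1, Hbb-bs, Hbb-bt, Hba-x, Hba-a1 and Hba-a2. They were 7 of the 37086 genes measured and had 12 transcripts with 33 exon entries. Their values were read in 6 RNA sequencing libraries of dorsal root ganglia, which hold the cell bodies of sensory neurons. The ganglia came from wild-type mouse embryos of the C57BL/6J strain, taken at embryonic day 14.5, and those of 18 embryos were pooled into 1 RNA stock of 100 ng per µl. In the high-volume group, 3, 10 and 30 ng of this RNA entered the cDNA reaction in 9 µl with the HV version of a SMARTer low-input kit. In the low-volume group the same 3 amounts entered in 1 µl with another SMARTer kit. Volume and kit therefore cannot be told apart, and there was 1 library for each volume and amount. No library was treated, no animal carried a mutation, and the sex of the embryos was not known. The 6 libraries repeat 1 pool, so all SDs, SEs and p-values below are about technical spread, and variation between embryos was not measured.

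Haemoglobin joins alpha-type chains with beta-type chains, and each cluster holds embryonic genes followed by adult genes. Primitive red cells, which arise in the yolk sac and circulate with their nuclei, use the embryonic chains and later also make adult chains, while definitive red cells from the fetal liver use the adult chains. Mid-gestation is the time of this switch, when blood in any embryonic tissue can hold both kinds of cell. In a bulk sample such as this one, fewer red cells and less globin RNA per cell cannot be told apart.

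On chromosome 7 (GRCm38, minus strand) lay Hbb-y, the embryonic epsilon-type chain, at 103851745 to 103853240, and Hbb-bh1, an embryonic beta-type chain used early in primitive cells, at 103841636 to 103843164. The adult beta chains Hbb-bs and Hbb-bt lay at 103826534 to 103828078 and at 103812524 to 103813996. On chromosome 11 (plus strand) lay Hba-x, the embryonic zeta chain, at 32276400 to 32278116, and the adult alpha chains Hba-a1 and Hba-a2 at 32283511 to 32284465 and at 32296489 to 32297298. Each of these 7 transcripts had 3 exons. The whole of exon 2 is coding, and it is shown here because the adult genes had almost no tags in it. The sequences come from the GENCODE M21 transcripts of GRCm38, 5′ to 3′ on the coding strand. Exon 2 of Hbb-bt (chr7:103813439-103813661) is identical to that of Hbb-bs (chr7:103827448-103827670) at 223 of 223 bases. Capitals in Hbb-y (chr7:103852748-103852970) and Hbb-bh1 (chr7:103842691-103842913) mark the 55 and 54 bases that differ from Hbb-bs.
Hbb-bs: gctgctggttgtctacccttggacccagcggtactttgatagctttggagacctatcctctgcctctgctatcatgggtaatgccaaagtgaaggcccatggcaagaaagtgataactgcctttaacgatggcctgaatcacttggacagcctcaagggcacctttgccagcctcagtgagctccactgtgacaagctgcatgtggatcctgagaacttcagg
Hbb-y: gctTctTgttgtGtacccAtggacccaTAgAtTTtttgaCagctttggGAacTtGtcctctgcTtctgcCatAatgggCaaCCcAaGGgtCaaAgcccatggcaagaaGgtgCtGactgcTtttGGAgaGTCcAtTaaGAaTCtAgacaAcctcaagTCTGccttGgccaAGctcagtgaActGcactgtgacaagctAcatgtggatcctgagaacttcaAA
Hbb-bh1: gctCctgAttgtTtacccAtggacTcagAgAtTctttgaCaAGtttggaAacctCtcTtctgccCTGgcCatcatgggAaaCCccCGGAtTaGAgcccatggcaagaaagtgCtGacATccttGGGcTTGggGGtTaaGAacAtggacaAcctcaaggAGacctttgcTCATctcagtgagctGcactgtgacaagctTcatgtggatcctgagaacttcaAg
The longest run without a difference from Hbb-bs was 22 bases in both embryonic genes.

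Exon 2 of Hba-a2 (chr11:32296741-32296945) is identical to that of Hba-a1 (chr11:32283924-32284128) at 205 of 205 bases. Capitals in Hba-x (chr11:32277569-32277773) mark the 71 bases that differ from Hba-a1.
Hba-a1: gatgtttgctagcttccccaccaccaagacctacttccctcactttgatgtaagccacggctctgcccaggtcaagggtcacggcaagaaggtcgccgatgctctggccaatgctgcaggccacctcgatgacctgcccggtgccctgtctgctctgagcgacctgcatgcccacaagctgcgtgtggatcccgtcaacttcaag
Hba-x: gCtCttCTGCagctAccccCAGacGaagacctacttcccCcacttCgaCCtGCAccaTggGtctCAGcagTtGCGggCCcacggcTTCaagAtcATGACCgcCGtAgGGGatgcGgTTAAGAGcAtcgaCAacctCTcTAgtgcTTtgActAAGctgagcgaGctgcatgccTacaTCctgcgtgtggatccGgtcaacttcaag
The longest run without a difference from Hba-a1 was 14 bases.

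The coding sequences of the adult copies differ in exon 3 alone, and the coding part of this exon is shown for that reason. Capitals mark the only base that differs between the copies over the whole coding sequence, 429 bases in the alpha and 444 in the beta genes. Counted from the first base of exon 3, it is C81T between Hba-a1 (chr11:32284263-32284391) and Hba-a2 (chr11:32297080-32297208), with the Hba-a1 base first.
Hba-a1: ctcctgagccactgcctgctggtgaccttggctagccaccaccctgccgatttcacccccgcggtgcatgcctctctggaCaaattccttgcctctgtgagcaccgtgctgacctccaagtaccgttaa
Hba-a2: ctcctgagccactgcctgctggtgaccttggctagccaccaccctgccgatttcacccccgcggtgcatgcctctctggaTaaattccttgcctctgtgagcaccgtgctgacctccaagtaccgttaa
It is C102T between Hbb-bs (chr7:103826665-103826793) and Hbb-bt (chr7:103812656-103812784), with the Hbb-bs base first.
Hbb-bs: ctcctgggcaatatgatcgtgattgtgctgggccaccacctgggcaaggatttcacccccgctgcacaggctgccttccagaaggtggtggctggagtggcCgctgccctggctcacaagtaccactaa
Hbb-bt: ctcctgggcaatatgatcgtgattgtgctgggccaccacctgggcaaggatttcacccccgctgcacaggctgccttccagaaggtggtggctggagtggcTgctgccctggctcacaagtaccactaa
By contrast, the coding sequence of Hbb-y was 74.3% identical to that of Hbb-bs and 76.4% to that of Hbb-bh1, and that of Hba-x was 62.0% identical to that of Hba-a1. In 50-base stretches taken along each exon, 0% of those of Hbb-y, Hbb-bh1 and Hba-x occurred in the transcripts of another gene. In exon 2 of each of the 4 adult genes 100% did, also with stretches of 36 or 100 bases. In exon 3 the shared part was 24.6% for Hbb-bs, 24.5% for Hbb-bt, 67.5% for Hba-a1 and 61.2% for Hba-a2. In exon 1 it was 59.4% for Hbb-bs, 33.5% for Hbb-bt, 33.5% for Hba-a1 and 100% for Hba-a2. The deposited exon 1 of Hbb-bs is 295 bases long and the GENCODE M21 exon 145, so the share holds for the shorter one.

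The ganglia matched their label, with mean RPKM of 4956 ± 722 for Sncg, 2961 ± 501 for Tubb3 and 1292 ± 34.3 for Stmn2, all genes of neurons (SD, n = 6 libraries). RPKM is the deposited count of reads, called tags, per kilobase of the feature, scaled by library size. The chosen transcripts held 14160406, 23511768 and 25867708 tags in the high-volume libraries of 3, 10 and 30 ng, and 15920965, 26826262 and 31524217 tags in the low-volume libraries. The 7 globins took 0.482%, 0.481% and 0.424% of these tags in high volume, against 0.451%, 0.389% and 0.415% in low volume. These shares overlapped between the volumes and averaged 0.440% ± 0.0374 (SD, n = 6). They hold almost no tags from the middle exon of the adult genes or the first exon of the adult alpha genes, as given below. Whether the shares are too low for that reason was not tested.

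Over the whole transcript Hbb-y had the highest RPKM of the 7 globins, an order that turned in exon 3 alone. It had 3249.65, 3114 and 3309.8 RPKM in the high-volume libraries of 3, 10 and 30 ng, against 2840.3, 2668 and 3020.2 RPKM in the low-volume libraries. Every high-volume value lay above every low-volume value, and the highest of the 6 was 1.24 times the lowest. How many of all genes split by volume in this way was not counted. Hbb-bh1, the other embryonic beta-type gene, had 33.7, 30.0 and 23.0 RPKM in high volume, against 13.1, 23.7 and 21.4 RPKM in low volume. Its low-volume 3 ng value was the lowest of the 6, the groups overlapped, and Hbb-bh1 made up 0.785% ± 0.209 of the summed RPKM of Hbb-y and Hbb-bh1 (SD, n = 6).

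The adult beta gene Hbb-bs had 1259.9, 1175 and 1131 RPKM in the high-volume libraries of 3, 10 and 30 ng, against 1198, 968 and 1016 RPKM in the low-volume libraries. Its copy Hbb-bt had 708, 1144 and 649 RPKM in high volume, against 1051, 793 and 980.1 RPKM in low volume. Both genes overlapped between the volumes, and Hbb-bt varied more, with a coefficient of variation of 22.5% against 9.93% for Hbb-bs. The tags of Hbb-bs were 66.3%, 53.2% and 65.8% of those of both copies in high volume, against 55.8%, 57.5% and 53.4% in low volume. Exact 95% intervals of these shares reached from 52.7% to 53.7% in the lowest library and from 65.7% to 66.9% in the highest, so the spread between libraries was larger than the counting error.

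Among the alpha-type genes, embryonic Hba-x had 216, 182 and 218 RPKM in the high-volume libraries of 3, 10 and 30 ng, against 252, 206 and 228 RPKM in the low-volume libraries. The groups overlapped, and the mean was 217 ± 23.0 RPKM (SD, n = 6). Adult Hba-a1 had 396, 362 and 103 RPKM in high volume, against 457, 90.2 and 61.5 RPKM in low volume. Its copy Hba-a2 had 563, 326 and 198 RPKM in high volume, against 291, 504 and 253 RPKM in low volume. Both copies overlapped between the volumes, and the highest value was 7.42 times the lowest for Hba-a1 and 2.84 times for Hba-a2. The tags of Hba-a1 made up 47.0%, 58.4% and 39.6% of those of both copies in high volume, against 66.5%, 18.4% and 23.5% in low volume. The exact 95% interval was 65.4% to 67.5% in the highest of these libraries and 17.7% to 19.2% in the lowest. Such intervals cover counting error only, since tags carry no molecular identifiers.

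**Figure D1:**
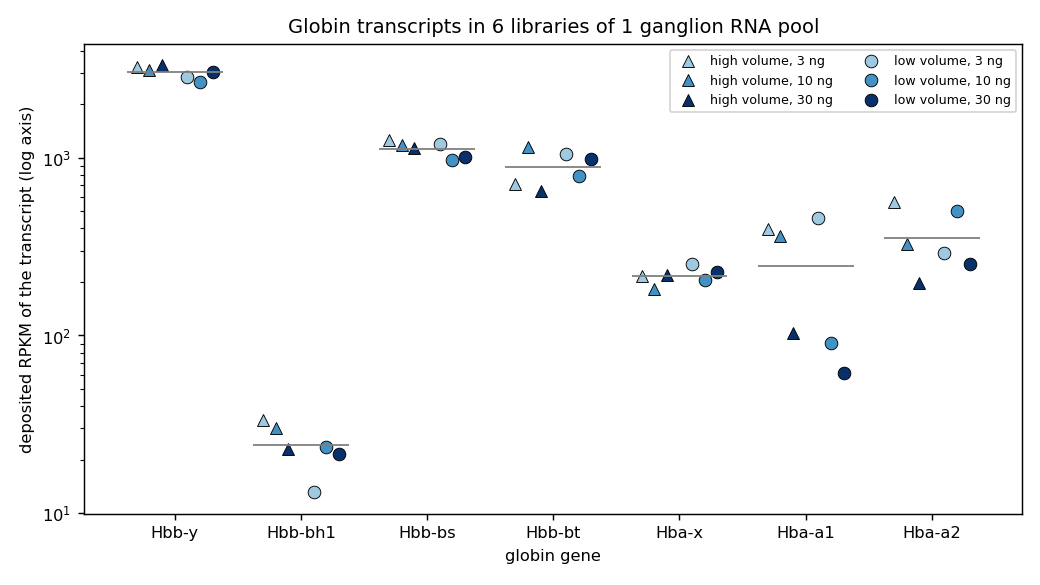
Deposited RPKM (log axis) of the 7 globin transcripts in 6 libraries, with triangles for high volume and circles for low volume, darker shades for more input RNA (3, 10 and 30 ng) and a line at the mean. Hbb-y lies between 2668 and 3309.8, Hbb-bh1 between 13.1 and 33.7, and Hba-a1 spreads the most, from 61.5 to 457.

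In order of mean RPKM over 6 libraries stood Hbb-y at 3034 ± 245, Hbb-bs at 1125 ± 112, Hbb-bt at 887 ± 200 (SD), Hba-a2 at 356 ± 145, Hba-a1 at 245 ± 178, Hba-x at 217 ± 23.0 and Hbb-bh1 at 24.1 ± 7.16. Of 7 pairs compared within libraries on the log2(RPKM + 1) scale, Hbb-y exceeded Hbb-bh1 by 6.97 ± 0.41 and Hbb-bs by 1.43 ± 0.12 (SD, n = 6 libraries, exact sign-flip permutation test, two-sided p = 0.0312 each). Hbb-bs minus Hbb-bt was 0.37 ± 0.36 and Hbb-bh1 minus Hbb-bt was -5.17 ± 0.64, with the same exact p. In these 4 pairs the direction was the same in 6 of 6 libraries and the p is the smallest that 6 libraries allow, but adjusted over 7 pairs it was 0.0547, so none passed 0.05. The alpha genes overlapped. Hba-x minus Hba-a1 was 0.24 ± 1.28 (exact p = 0.562, Hba-x higher in 3 of 6 libraries), Hba-x minus Hba-a2 was -0.62 ± 0.64 (exact p = 0.0625, higher in 1 of 6) and Hba-a1 minus Hba-a2 was -0.86 ± 1.21 (exact p = 0.188, higher in 2 of 6). With tags not divided by length, Hba-x minus Hba-a2 was -0.09 ± 0.63, Hba-x minus Hba-a1 was 0.43 ± 1.28 and Hba-a1 minus Hba-a2 was -0.52 ± 1.21. The order of Hba-a1 and Hba-a2 depended on the part of exon 3 counted, as given below.

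The order between embryonic and adult genes depended on the exon counted. In exon 2, Hbb-y had 15164, 24442 and 29466 tags in the high-volume libraries of 3, 10 and 30 ng, against 14731, 23885 and 31682 tags in the low-volume libraries. Hbb-bs had 0, 1 and 10 tags in exon 2 in high volume, against 0, 5 and 3 in low volume. Hbb-bt had 0, 0 and 6 tags there in high volume, against 0, 1 and 5 in low volume. The exon in which the adult copies have identical sequences thus carried almost no adult tags, while its embryonic counterpart carried more tags than any other exon of Hbb-y.

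Exon 3 of Hbb-bs held 13632, 23604 and 22215 tags in high volume, against 14616, 21839 and 26259 tags in low volume. Exon 3 of Hbb-bt held 6662, 19281 and 11114 tags in high volume, against 11660, 14824 and 22410 tags in low volume. In Hbb-y it held 12076, 19351 and 19425 tags in high volume, against 11556, 18684 and 23943 tags in low volume. The mean RPKM of exon 3 was 3186 ± 253 for Hbb-bs, 2745 ± 190.0 for Hbb-y and 2190.0 ± 561 for Hbb-bt (SD, n = 6). In this exon, chosen after the exon counts were seen, Hbb-y minus Hbb-bs turned to -0.21 ± 0.08 on the log2 scale (exact sign-flip p = 0.0312, adjusted over 7 pairs 0.0438), and Hbb-y was the lower gene in each of the 6 libraries.

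In the adult alpha genes exon 2 was nearly empty as well. Hba-a1 had 0 tags in exon 2 in all 6 libraries, and a count of 0 allows up to 3 tags in a library. Hba-a2 had 0, 0 and 8 tags there in high volume, against 0, 1 and 2 in low volume, while Hba-x had 1263, 1590 and 2201 tags in high volume, against 1521, 2017 and 2776 in low volume. Exon 1 was nearly empty too, with 1 to 23 tags for Hba-a1 and 0 to 6 for Hba-a2. Exon 1 is annotated with 291 bases in Hba-a1 and 130 in Hba-a2, and all 130 are also in Hba-a1. The stretches of Hba-a1 that are its own thus come from its longer annotated exon. Exon 1 of Hbb-bt, with 33.5% of its 50-base stretches shared, held 845 to 1743 tags. The part of shared sequence in these counts was not tested. Exon 3 of Hba-a1 held 4282, 6541 and 2003 tags in high volume, against 5385, 1809 and 1439 tags in low volume. Exon 3 of Hba-a2 held 4825, 4674 and 3082 tags in high volume, against 2721, 8112 and 4747 tags in low volume. These exons carried nearly all tags of the adult alpha genes, so that the RPKM of the whole transcripts spreads the tags of 1 exon over the length of 3. In exon 3 alone the mean RPKM was 899 ± 368 for Hba-a2, 840.2 ± 615 for Hba-a1 and 270.2 ± 25.1 for Hba-x (SD, n = 6). Hba-x minus Hba-a1 turned to -1.21 ± 1.27 there (exact sign-flip p adjusted over 7 pairs = 0.109), and Hba-x minus Hba-a2 was -1.64 ± 0.58 (exact p = 0.0312, adjusted 0.0438). The exact p is at its smallest here as in whole transcripts, and the adjusted p differs because 5 pairs lay at it in exon 3, against 4 in whole transcripts.

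**Figure D2:**
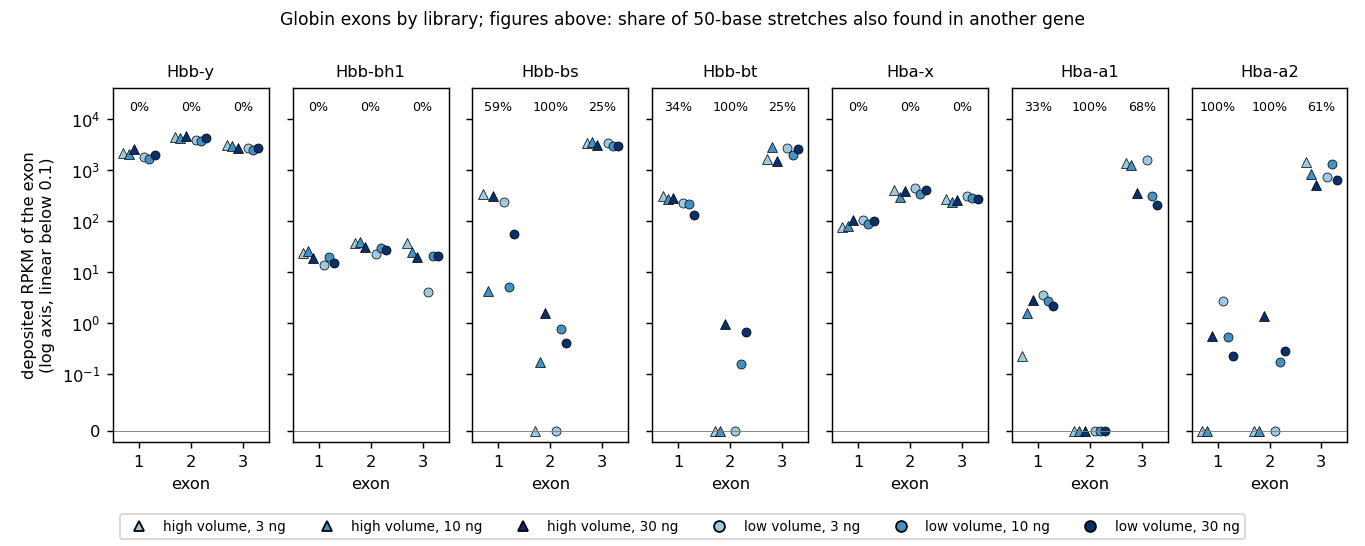
Deposited RPKM of exons 1, 2 and 3 of each globin (log axis, linear below 0.1), with triangles for high volume, circles for low volume and darker shades for more input RNA, and above each exon the share of its 50-base stretches found in another gene. Exon 2 of the 4 adult genes lies between 0 and 1.59 RPKM where 100% of stretches are shared, and the 3 embryonic genes have no such gap.

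Embryonic genes had no exon as empty as exon 2 of the adult genes, but their profiles were uneven. Mean RPKM was 2025 in exon 1 and 4182 in exon 2 of Hbb-y. It was 91.3 and 376 in these exons of Hba-x, and 19.1 and 30.8 in those of Hbb-bh1. The RPKM of exon 2 was 1.53 ± 0.116 times that of exon 3 for Hbb-y and 1.39 ± 0.120 times for Hba-x (SD, n = 6). For Hbb-bh1 the ratio was between 0.975 and 1.56 in 5 libraries and 5.49 in the low-volume 3 ng library, where exon 3 held 17 tags. How reads with several matches were treated, and how long the reads were, is not given in the sources used here, and the part of either in the empty adult exons was not tested. Exon 1 of Hbb-bs differed between libraries in another way. It held 1544, 32 and 2576 tags in the high-volume libraries of 3, 10 and 30 ng, against 1152, 44 and 566 tags in the low-volume libraries, so both 10 ng libraries were low. Exon 1 of Hbb-bt showed no such dip, with 1039, 1512 and 1743 tags in high volume, against 845, 1364 and 971 tags in low volume. Introns of the 7 genes were almost empty, with 54 tags in 14 introns over all libraries beside 598181 tags in exons.

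The embryonic share followed from these profiles. Of the summed beta-type RPKM, Hbb-y and Hbb-bh1 made up 62.5%, 57.6% and 65.2% in the high-volume libraries of 3, 10 and 30 ng, against 55.9%, 60.5% and 60.4% in the low-volume libraries. The volumes overlapped, and no order with input was shared by both. The mean over 6 libraries was 60.3% ± 3.33 (SD) for whole transcripts, 100.0% ± 0.0211 for exon 2 and 34.1% ± 2.89 for exon 3. With the tags of exon 3 divided by the number of positions whose 50-base stretch is in no other gene, it was 28.5% ± 2.62. Exon 3 and its own stretches were chosen after the exon counts were seen.

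Of the summed alpha-type RPKM, Hba-x made up 18.4%, 20.9% and 42.0% in the high-volume libraries of 3, 10 and 30 ng, against 25.2%, 25.8% and 42.0% in the low-volume libraries. In both volumes the 30 ng library had the highest embryonic share. The mean was 29.1% ± 10.4 for whole transcripts, 99.9% ± 0.141 for exon 2, 15.5% ± 6.58 for exon 3 and 6.15% ± 3.04 per own position of exon 3 (SD, n = 6). The last value depends on the stretch length, and the read length is not known. With stretches of 36, 50 and 100 bases, exon 3 has 36, 50 and 81 own positions in Hba-a1. In Hba-a2 it has 52, 66 and 97. The alpha-type genes together were 18.3%, 13.8% and 9.21% of the RPKM of all 7 globins in high volume, against 16.4%, 15.2% and 9.72% in low volume. This share of whole-transcript RPKM was lowest at 30 ng in both volumes. Its mean was 13.8% ± 3.65 for whole transcripts, 8.22% ± 1.17 in exon 2, 19.3% ± 5.90 in exon 3 and 34.0% ± 9.93 per own position (SD, n = 6). In exon 2 it was instead lowest at 10 ng, with 8.24%, 6.55% and 7.49% in high volume, against 10.0%, 8.35% and 8.65% in low volume.

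**Figure D3:**
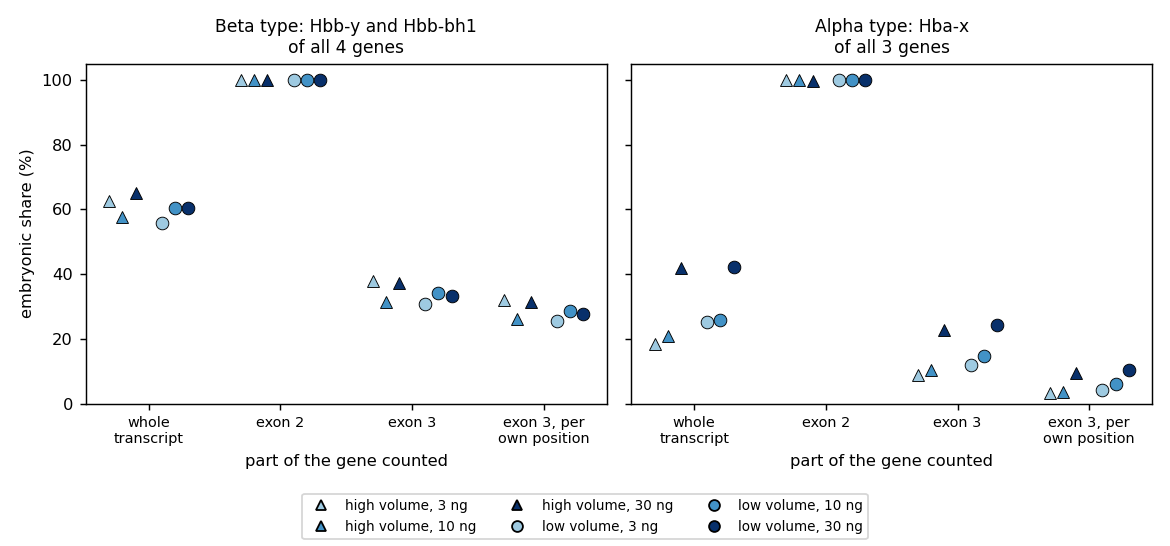
Embryonic share in percent of beta-type (left) and alpha-type (right) globin in each library, for RPKM of the whole transcript, of exon 2, of exon 3, and for exon 3 tags per position whose 50-base stretch is in no other gene. Triangles are high volume, circles low volume, and darker shades more input RNA. The mean beta-type share is 60.3% for whole transcripts and 34.1% in exon 3.

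The series allows the question whether the reaction volume, with its kit, changed the globin counts. All 7 genes passed the filter on low counts. In an edgeR quasi-likelihood fit over all 6 libraries with input as a covariate, 0 of the 7 globins passed an adjusted p of 0.05, against 0.0062% of the 16119 genes tested, which is 1 gene. At an unadjusted p under 0.05 lay 1076 genes. DESeq2 called 166 of 7008 genes (2.37%) and edgeR without a filter on low counts 9 of 24792 (0.0363%), none of them a globin. In DESeq2 Hbb-y lay just above the threshold, with an adjusted p of 0.0502, and Hbb-bs had 0.0805. With the input as a replicate block edgeR called 0 genes, where the lowest adjusted p was 0.250. Hbb-y averaged 2332 ± 61.8 CPM, its tags scaled to a common library total, in the high-volume group, against 2018 ± 121 CPM in the low-volume group (SD, n = 3), and differed by 0.33 ± 0.08 on the log2 scale (SE, edgeR adjusted p = 0.636). Hbb-bs averaged 1012 ± 56.8 CPM in high volume, against 886 ± 92.3 CPM in low volume, a difference of 0.31 ± 0.09 (edgeR adjusted p = 0.660). Hba-a1 averaged 219.8 ± 123 CPM in high volume, against 151 ± 163 CPM in low volume, and differed by 1.01 ± 0.34 (edgeR adjusted p = 0.691). The log2 differences of the others were 0.72 ± 0.32 for Hbb-bh1, -0.03 ± 0.22 for Hbb-bt, -0.01 ± 0.13 for Hba-x and 0.07 ± 0.32 for Hba-a2. Without the low-volume 3 ng library Hbb-bh1 was at 0.33 ± 0.21, and without the high-volume 10 ng library Hba-a1 was at 0.65 ± 0.32. With total count scaling, which moved the median of all genes to -0.10, Hbb-y was at 0.21 and Hbb-bs at 0.19. With TMM scaling the median log2 difference was 0.31 over the 7 globins, 5 of them above 0. Over all genes tested it was 0.02, with 8360 of 16119 above 0. The 7 include near-identical copies, which are given summed below.

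The 10 and 30 ng libraries alone gave more calls, with 1 residual degree of freedom. There 3 of the 7 globins were higher in high volume, against 1.21% of the 16564 genes tested. On the log2 scale Hbb-y rose by 0.30 ± 0.06 (SE, edgeR adjusted p = 0.0314), Hbb-bs by 0.34 ± 0.07 (adjusted p = 0.0348) and Hba-a1 by 1.51 ± 0.22 (adjusted p = 0.0115). In the 3 ng pair, which this fit left out, Hba-a1 had 302 CPM in high volume, against 339 CPM in low volume, the opposite direction. Hba-a2 was at -0.36 ± 0.09 in the 10 and 30 ng libraries (adjusted p = 0.0824), opposite to its copy. With the tags of both copies summed over all 6 libraries, the log2 volume difference was 0.37 ± 0.15 for the adult alpha genes (edgeR adjusted p = 0.747) and 0.17 ± 0.11 for the adult beta genes (adjusted p = 0.794).

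Adult alpha globin had the largest input slopes among the members. Hba-a1 and Hba-a2 together had 643, 478 and 198 CPM in the high-volume libraries of 3, 10 and 30 ng, and 511, 371 and 197 CPM in the low-volume libraries. The values of each amount of RNA lay apart from those of the next in both volumes, and the 3 ng value was 3.25 times the 30 ng value in high volume and 2.59 times in low volume. How many of all genes show such an order was not counted. Hba-x had 189, 161 and 190.0 CPM in high volume, against 214, 179 and 197 CPM in low volume, with no such order. Per doubling of input, the edgeR log2 slope was -0.46 ± 0.06 for the summed adult alpha genes (SE, unadjusted p = 8.06e-05, adjusted p = 0.625), -0.75 ± 0.13 for Hba-a1 (adjusted p = 0.625) and -0.28 ± 0.12 for Hba-a2 (adjusted p = 0.625). The slope of Hba-a2 was -0.13 ± 0.16 without the high-volume 3 ng library, -0.15 ± 0.14 without the high-volume 30 ng library and -0.50 ± 0.05 without the low-volume 3 ng library. None of the 16119 genes (0%) passed in edgeR, and 1253 had an unadjusted p under 0.05. DESeq2 called 59 genes (0.345%), among them Hba-a1 at -0.76 ± 0.18 (adjusted p = 0.0224). Without a filter on low counts, Hba-a1 was 1 of 2 genes called by edgeR (0.00807%, adjusted p = 0.00620). In the 10 and 30 ng libraries Hba-a2 was the only gene called (0.00604%), with a slope of -0.53 ± 0.06 (edgeR adjusted p = 0.0325), and there Hba-a1 had -0.75 ± 0.14 (adjusted p = 0.247).

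The other slopes were close to 0, with 0.02 ± 0.03 for Hbb-y, 0.02 ± 0.12 for Hbb-bh1, -0.06 ± 0.03 for Hbb-bs, -0.03 ± 0.08 for Hbb-bt and -0.02 ± 0.05 for Hba-x (SE, log2 per doubling of input). The median slope was -0.03 over the 7 globins and 0.02 over all genes. Total tags were higher at each higher amount in both volumes, so that depth and input cannot be told apart here. Whether the volume difference itself changed with input was tested by the interaction, in which 0 of 16119 genes (0%) passed in edgeR and 1348 had an unadjusted p under 0.05. DESeq2 called 46 genes (0.324%), none of them a globin. The edgeR interaction was 0.28 ± 0.24 for Hba-a1 and -0.42 ± 0.20 for Hba-a2 (adjusted p = 0.703 and 0.583), and without the filter on low counts Hba-a2 was among 254 genes called (1.02%, adjusted p = 0.0120).

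**Figure D4:**
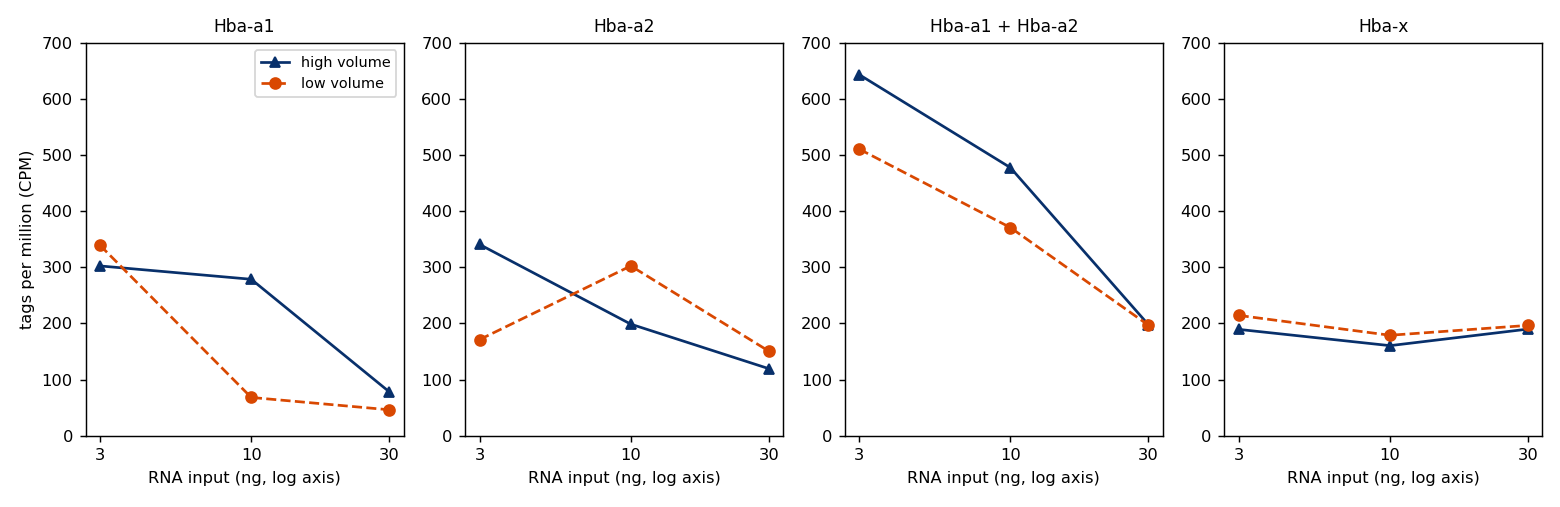
Scaled tag counts (CPM, axis from 0) against RNA input in ng (log axis) for Hba-a1, Hba-a2, their sum and Hba-x, with triangles and a solid line for high volume and circles and a dashed line for low volume, 1 library per point. The sum is lower at each higher amount in both volumes, with 643 CPM at 3 ng and 198 CPM at 30 ng in high volume, while Hba-x stays between 161 and 214 CPM.

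The fold between 3 and 30 ng was larger in the first part of exon 3 than in its end. In the files a second, shorter transcript of each adult alpha gene ends within exon 3, which splits this exon into a first part of 176 bases and an end part of 27 bases in Hba-a1 and 43 in Hba-a2. The first part differs between the copies at 1 base, the one printed in capitals above, and 60.6% of its 50-base stretches are in both copies. Over both copies it held 525, 346 and 124 CPM in the high-volume libraries of 3, 10 and 30 ng, against 385, 257 and 87.5 CPM in the low-volume libraries. The 3 ng value was 4.22 times the 30 ng value in high volume and 4.40 times in low volume. The end part held 118, 131 and 72.3 CPM in high volume, against 124, 113 and 109 CPM in low volume, which gives 1.64 times and 1.14 times. In low volume the end part was also lower at each higher amount, while in high volume it was highest at 10 ng. The first part of Hba-a1 held 4282, 6541 and 2003 tags in high volume, against 5362, 1775 and 1391 in low volume. That of Hba-a2 held 3149, 1602 and 1212 tags in high volume, against 765, 5119 and 1367 in low volume. Hba-a1 was thus the higher copy there in all libraries but the low-volume 10 ng one. Over whole transcripts its RPKM was higher in only 2 of 6. Nearly all tags of the end part were counted for Hba-a2, where it held 34.7%, 65.7% and 60.7% of the tags of exon 3 in high volume, against 71.9%, 36.9% and 71.2% in low volume. In Hba-a1 it held 0 tags in each high-volume library, against 23, 34 and 48 tags in the low-volume libraries of 3, 10 and 30 ng, so the volumes did not overlap. Of the 50-base stretches that reach into the end part, 100% of those of Hba-a1 are also in Hba-a2. Of those of Hba-a2, 62.8% are also in Hba-a1. The end part of Hba-a1 thus has no such stretch of its own, which limits what its counts say about this copy. These parts were compared after their values were seen and carry no test, and the part of the read matching in them was not tested.

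Other genes of the red cell were low beside the globins. The lists of genes given here are described by counts and medians, with no test of their own. Of 24 genes of the red cell membrane and its transport, 14 averaged at least 1 RPKM and 6 under 0.1, with a median of 1.89. Among the highest were Prdx2, an antioxidant enzyme, at 743 ± 81.8 and Car2, a carbonic anhydrase, at 18.5 ± 2.98 (SD, n = 6), both also used by neurons or glia. Slc4a1, the anion exchanger band 3, had 0.142, 1.59 and 1.16 RPKM in the high-volume libraries of 3, 10 and 30 ng, against 0.0130, 1.11 and 1.08 RPKM in low volume. Slc4a1 was lowest in the 3 ng library of each volume, whereas Tspan33, a membrane protein of the same list, was highest there, with 1.98, 1.51 and 1.48 RPKM in high volume, against 2.24, 1.55 and 1.76 RPKM in low volume. Both were picked with their values in view.

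All 9 haem synthesis genes averaged at least 1 RPKM, with a median of 20.5. Among the highest were Urod at 50.2 ± 9.56 and Alad at 36.7 ± 8.55, both enzymes of the middle of the pathway that every cell uses. Alas2, the red cell form of the first enzyme and named after its value was seen, had 24.8 ± 4.70 RPKM (SD, n = 6), with 25.6, 22.2 and 22.6 in the high-volume libraries of 3, 10 and 30 ng, against 33.4, 19.8 and 25.3 in the low-volume libraries, so that it too was highest at 3 ng. Of 19 regulators of red cells and of the globin switch, 8 reached a mean RPKM of 1, and the median was 0.567. They were led by Ldb1, a cofactor of the enhancer complex of the globin genes, at 10.2 ± 1.59, Bcl11a, a repressor of embryonic globin genes that neurons also use, at 3.89 ± 0.271, and Lmo2 at 3.77 ± 2.49, which was highest in the low-volume 3 ng library. The red cell regulators Gata1 and Klf1 were at 0.0560 ± 0.0586 and 0.115 ± 0.129 RPKM, also named after their values were seen. Of these 3 lists 21 of 24, 9 of 9 and 14 of 19 genes passed the filter on low counts, Gata1 and Klf1 not among them. None of those tested was called in the edgeR fits of volume or input (0.0062% and 0% of genes).

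Markers of other blood-borne and vessel cells were present too. The 13 genes of macrophages, the cells that clear old red cells, had a median RPKM of 11.3, led by Tyrobp at 68.4 ± 9.69, Fcer1g at 64.0 ± 9.93 and C1qb at 54.8 ± 2.73 (SD, n = 6). The 10 endothelial genes had a median of 10.97, led by Ramp2 at 86.4 ± 5.28, Egfl7 at 27.6 ± 2.90 and Cldn5 at 22.1 ± 4.56. The summed RPKM of the macrophage list was 259 to 298 in high volume and 279 to 325 in low volume, that of the endothelial list 178 to 192 in high volume and 186 to 202 in low volume. Both lists overlapped between the volumes, and their part in the globin counts was not tested.

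Further members of the globin family had lower means than each of the 7 globins. Hbb-bh0, a single-exon entry of the beta cluster between Hbb-y and Hbb-bh1, had 13.1 ± 3.41 RPKM from 27 to 61 tags a library (SD, n = 6). In the low-volume 3 ng library Hbb-bh0, at 16.0 RPKM, was above Hbb-bh1, at 13.1 RPKM. Hbb-bh2 and Hbb-bh3 had 0 tags in all libraries. The theta-type genes of the alpha cluster, Hbq1a and Hbq1b, were at 1.16 ± 1.09 and 0.501 ± 0.394 RPKM, and the pseudogene Hba-ps4 on chromosome 17 was at 0.334 ± 0.516. Cytoglobin (Cygb) had 2.89 ± 1.50 RPKM, neuroglobin (Ngb), the globin of neurons, 1.09 ± 1.03, and myoglobin (Mb), the oxygen store of muscle, 0.124 ± 0.115. Ngb had 72, 55 and 44 tags in the high-volume libraries of 3, 10 and 30 ng, against 0, 10 and 64 tags in the low-volume libraries.

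The genes whose log2 CPM was most like that of Hbb-y over the 6 libraries, among 8714 genes that averaged at least 10 CPM, were Pcgf2 (Pearson r of 0.996), the ribosomal protein genes Rps12 (0.991), Rps20 (0.990) and Rps21 (0.987), and the histone gene Hist1h4d (0.986). The same r was 0.634 for Hbb-bs, 0.585 for Hbb-bh1, 0.159 for Hba-a1, -0.236 for Hba-x, -0.240 for Hba-a2 and -0.333 for Hbb-bt. With 6 libraries of 1 pool that share volume, input and depth, these values describe the libraries, and the 5 genes were picked as the highest of 8714.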

How the data were processed

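Pooled ganglion RNA was sequenced as 6 libraries. The tools, per the submitters' processing notes, were CASAVA 1.8, Bowtie2 2.1.0 and TopHat2 2.0.8, on genome build GRCm38.p1. Neither the counting program nor the treatment of reads with several matches is given in the sources used here. As deposited by the authors, the files give, per the file headers, a tag count and an RPKM for each transcript, exon and intron. Each transcript count equalled the sum of its exon counts for 93615 of 93615 transcripts in every library.

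Of these transcripts 89664 matched GENCODE M21 by ID. Each gene was represented by its transcript with the largest summed count. Tests of the counts used edgeR 4.0.16 with R 4.3.3 (quasi-likelihood test, TMM, filterByExpr, volume and centred log2 input, 3 residual degrees of freedom, or 2 with the interaction), with Benjamini-Hochberg adjustment over all genes. DESeq2 1.42.0, other scalings, no filter, the 10 and 30 ng libraries alone, summed copies and left-out libraries were alternatives. The test was checked on simulated counts. SEs come from the F statistic. RPKM pairs were tested on log2(RPKM + 1), which understates ratios of low genes. Shared stretches were counted over all GENCODE M21 transcripts with Python 3.11.15.

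Same-numbered libraries share their input amount, and the numbers pair them in this sense only. Their deviations from the group means correlated at 0.132, 0.111 and 0.126 (3, 10 and 30 ng). Libraries of different numbers correlated at -0.132 to 0.103. The highest of these, 0.103, was high-volume 10 ng with low-volume 30 ng. These weak correlations do not show a pairing beyond the shared input.

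The members, lists, pairs and rules were chosen with earlier results of these data known. Named are the members, other globin entries, the top 3 of each list by mean RPKM, called list genes and the 5 genes most like Hbb-y. Some genes of these lists are not reported here. Strand use in counting is not given, so antisense tags cannot be told apart. Neither Hba-ps3 nor Ahsp, the alpha-globin chaperone, was analysed here.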

Additional observations from a re-analysis of the deposited data

How the results depend on the processing

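The beta-type embryonic share of 60.3% was 100.0% in exon 2, 34.1% in exon 3 and 28.5% per own position of exon 3. The alpha-type embryonic share of 29.1% was 99.9%, 15.5% and 6.15% in these settings, and the alpha-type share of all globin, 13.8%, was 8.22%, 19.3% and 34.0%. Without 1 library these shares stayed at 59.4% to 61.2%, 26.5% to 31.2% and 12.9% to 14.7%. In exon 3, 5 of 7 pairs lay at the smallest exact p, against 4 in whole transcripts, so that after adjustment 5 passed, against 0, a change of 1 pair. There Hbb-y minus Hbb-bs (-0.21) and Hba-x minus Hba-a1 (-1.21) reversed. Hba-x minus Hba-a1 was -0.091 to 0.48 without 1 library. Read matching as the cause was not tested.

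The count of genes called for volume, 1, was 9 without a filter, 166 with DESeq2, 274 in the 10 and 30 ng libraries and 0 to 2 without 1 library: 0 without the low-volume 3 ng library (lowest adjusted p 0.111, 1073 genes at an unadjusted p under 0.05) and 2 without the high-volume 30 ng library. With the input as a replicate block, which pairs the libraries, it was 0 in edgeR (1164 at an unadjusted p under 0.05), and the block changed no call of a globin. For input the count of 0 was 2, 59 and 1 without a filter, with DESeq2 and at 10 and 30 ng. For the interaction it was 254 and 46 without a filter and with DESeq2. The causes were not tested. Leaving out 1 library left the input and interaction counts and the pairs passed at 0. With 5 libraries no pair could pass, since the smallest exact p is 0.0625.

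Small log2 values changed sign. The volume difference of Hba-a2 was -0.057 with total count scaling. In the 10 and 30 ng libraries volume differences were 0.095 (Hbb-bt), 0.0045 (Hba-x) and -0.36 (Hba-a2), and input slopes were -0.16 (Hbb-bh1), 0.016 (Hbb-bs) and 0.14 (Hba-x). With copies summed the volume difference of Hbb-bt joined with Hbb-bs was 0.17, and the interactions were -0.0068 (Hbb-bs with Hbb-bt) and -0.11 (Hba-a1 with Hba-a2). Without 1 library the volume differences ran from -0.32 to 0.16 (Hbb-bt), -0.099 to 0.077 (Hba-x) and -0.41 to 0.42 (Hba-a2), and the input slopes from -0.014 to 0.042 (Hbb-y), -0.16 to 0.15 (Hbb-bh1), -0.11 to 0.060 (Hbb-bt) and -0.058 to 0.0071 (Hba-x). The interactions ran from -0.14 to 0.031 (Hbb-y), -0.12 to 0.10 (Hbb-bs), -0.49 to 0.40 (Hbb-bt), -0.13 to 0.20 (Hba-x), -0.28 to 0.77 (Hba-a1) and -0.94 to 0.15 (Hba-a2). Low depth limits Hbb-bh1 most, with 136 to 477 tags a library.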
